A study of Homo sapiens with 8 samples.

Results

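The ephrins and EPH receptors examined here were 10 genes of the 78691 in the gene count table, taken by gene name. They were the ephrin-A ligands EFNA1, EFNA3, EFNA4 and EFNA5, the ephrin-B ligands EFNB1 and EFNB2, and the receptors EPHA2, EPHB2, EPHB3 and EPHB4. The whole family has 22 genes in the table, so 12 were not among the 10 and were followed as a list of their own. RNA was measured in 8 libraries, 2 in each of 4 conditions. C4-2B, a castration-resistant prostate adenocarcinoma line, was transduced with lentivirus, either the empty vector (control) or one in which the EF1A promoter drives human MYCL, joined to EGFP by a self-cleaving peptide (MYCL). NCI-H660, a neuroendocrine prostate cancer line, received an shRNA construct with a non-targeting sequence (shCtrl) or with sequences against MYCL (shMYCL), delivered by an adenoviral vector according to the series' design text. The methods describe puromycin selection or sorting of lentivirally transduced cells and name no single clone. Line, vector, and the direction and size of the manipulation changed together between C4-2B and NCI-H660. Their parts in a difference between the lines cannot be told apart. The labels call the control C4-2B libraries biological replicates and give the others a replicate number only, so p-values measure the spread between these libraries, which may be technical.

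Ephrins are ligands held on the cell surface, the A class by a lipid anchor and the B class by a transmembrane segment, and their partners, the EPH receptors, are the largest family of receptor tyrosine kinases. Contact between neighbouring cells lets ligand and receptor bind, and signals then run into both cells, where they act on the cytoskeleton and cell adhesion. As a rule EPHA receptors bind ephrin-A ligands and EPHB receptors bind ephrin-B ligands, while EPHB2 can also bind EFNA5 and EPHB4 binds mainly EFNB2. In epithelia and their tumours the family is known for boundary formation, repulsion between cells and migration.

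Library totals ranged from 15177071 to 32344170 counts. MYCL had 5.47 and 6.39 TPM (a level per transcript length, scaled to the same total in each library) in control C4-2B and 1363 and 1435 TPM in MYCL cells. It had 64.3 and 48.2 TPM in shCtrl and 6.18 and 7.0 TPM in shMYCL cells, so it moved as labelled in both lines. KLK3, which encodes prostate-specific antigen, had between 749.8 and 1267 TPM in C4-2B and no counts in NCI-H660. CHGA, the secretory granule protein chromogranin A, had between 112.2 and 126.1 TPM in NCI-H660 and at most 0.276 TPM in C4-2B. Of 10 listed adenocarcinoma markers 9 were lower in shCtrl NCI-H660 than in control C4-2B, and all 9 neuroendocrine markers tested were higher. TRPM8, listed for adenocarcinoma, had 4.99 to 6.49 TPM in shCtrl and 2.72 to 3.23 TPM in control C4-2B. Of the neuroendocrine list, DLL3 had 5.87 to 6.07 TPM in control C4-2B and at least 22.4 TPM in shCtrl cells. SRRM4 did not exceed 0.0476 TPM in any library. PECAM1 of endothelium and PTPRC of leukocytes did not exceed 0.0849 and 0.0283 TPM in any library. Other genes listed as markers of these cell types were higher. In NCI-H660 CD74 had between 60.7 and 70.9 TPM and ESAM between 8.02 and 11.4 TPM. CD68 had between 8.30 and 25.6 TPM in C4-2B.

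EFNA4, EFNA3 and EFNA1 lie next to each other on the plus strand of chromosome 1 in GRCh38, at chr1:155063737-155069553, chr1:155078837-155087538 and chr1:155127876-155134899. EFNA4 and EFNA3 are 9.284 kb apart, EFNA3 and EFNA1 40.338 kb apart, and the 3 genes together span 71.162 kb. EFNB1 is at chrX:68829021-68842160 on the plus strand. The 250 bases upstream of the RefSeq start (GRCh38.p14) are shown for the ligands whose RNA passed the test in both lines, EFNA1, EFNA3 and EFNB1, and for EFNA4, which stands in the same cluster and did not. The motifs below were searched on both strands: CACGTG, the E-box recognised by MYC family proteins; CAGCTG, an E-box recognised by other basic helix-loop-helix factors; and ACGTG and GCGTG, the core recognised by hypoxia-inducible factors, of which ACGTG lies within CACGTG. Capitals mark GCGTG, or CACGC where it is on the other strand. The stretches are chr1:155127626-155127875, chr1:155078587-155078836, chrX:68828771-68829020 and chr1:155063490-155063739, all plus strand and written 5′ to 3′.
EFNA1: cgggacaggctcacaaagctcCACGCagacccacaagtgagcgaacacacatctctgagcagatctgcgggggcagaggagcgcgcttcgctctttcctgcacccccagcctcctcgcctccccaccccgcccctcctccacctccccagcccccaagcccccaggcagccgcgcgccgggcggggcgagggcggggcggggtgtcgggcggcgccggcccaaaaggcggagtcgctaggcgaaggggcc
EFNA3: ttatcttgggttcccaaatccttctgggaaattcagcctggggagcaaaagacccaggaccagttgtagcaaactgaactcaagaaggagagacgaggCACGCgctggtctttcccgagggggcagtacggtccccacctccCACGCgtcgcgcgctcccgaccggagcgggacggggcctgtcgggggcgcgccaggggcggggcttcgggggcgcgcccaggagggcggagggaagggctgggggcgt
EFNB1: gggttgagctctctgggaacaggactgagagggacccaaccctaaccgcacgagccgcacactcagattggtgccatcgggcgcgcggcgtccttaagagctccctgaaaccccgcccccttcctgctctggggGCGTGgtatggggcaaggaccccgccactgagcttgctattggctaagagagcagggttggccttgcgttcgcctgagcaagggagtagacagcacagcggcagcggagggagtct
EFNA4: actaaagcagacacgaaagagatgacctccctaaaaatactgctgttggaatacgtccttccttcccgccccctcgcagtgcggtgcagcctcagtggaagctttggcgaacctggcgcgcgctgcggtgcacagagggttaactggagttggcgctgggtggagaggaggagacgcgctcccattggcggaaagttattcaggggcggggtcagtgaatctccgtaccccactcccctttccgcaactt

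EFNA1 had 1 GCGTG, 229 bases before its start, EFNA3 had 2, at 152 and 108 bases, EFNB1 had 1 at 116 bases, and EFNA4 had none. In the whole RefSeq window of 300 bases, which includes 50 bases after the start, all 10 members had a sequence, and GCGTG stood in 8 of them, all but EFNA4 and EPHB3. GCGTG stood in 35.9% of 27305 promoter windows, 1 a gene. The members' windows had a median GC content of 70.5%, against 58.0% over all windows. CACGTG stood in 0 of the 10 members and in 7.28% of all windows. ACGTG and CAGCTG each stood in 1 member, EPHB3, and in 21.4% and 17.8% of all windows. A match describes the letters in these windows and not a bound site.

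On the TPM scale, the ephrin-A ligands were the most abundant of the 10 genes in C4-2B. In control C4-2B the order of mean levels was EFNA5 with 46.2 ± 1.59 TPM (SD, n = 2, as for the levels below), EFNA1 with 32.9 ± 0.0392, EFNA4 with 19.9 ± 1.77, EFNA3 with 16.9 ± 0.297 and EPHB4 with 14.3 ± 0.114. The other 5 followed between 0.994 TPM for EPHB2 and 3.62 TPM for EPHA2, and EPHA2, EPHB3 and EFNB1 overlapped with their neighbours in the order. In MYCL-overexpressing C4-2B, EFNA1 stood first with 71.3 ± 1.03 TPM, above EFNA5 with 39.0 ± 5.20 TPM and EFNA3 with 28.4 ± 1.75 TPM.

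In shCtrl NCI-H660 the order began with EFNA1 at 51.9 ± 8.02 TPM and EFNA3 at 28.5 ± 5.53 TPM. EPHB2 at 18.5 ± 2.70 TPM and EPHB4 at 18.5 ± 1.63 TPM came next and overlapped. EFNA5, first in control C4-2B, was ninth here with 3.15 ± 0.0221 TPM. In shMYCL NCI-H660 the receptors EPHB4, with 24.8 ± 1.09 TPM, and EPHB2, with 21.8 ± 3.05 TPM, stood above all 6 ligands, of which EFNA1 was the highest with 17.3 ± 0.930 TPM.

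**Figure D1:**
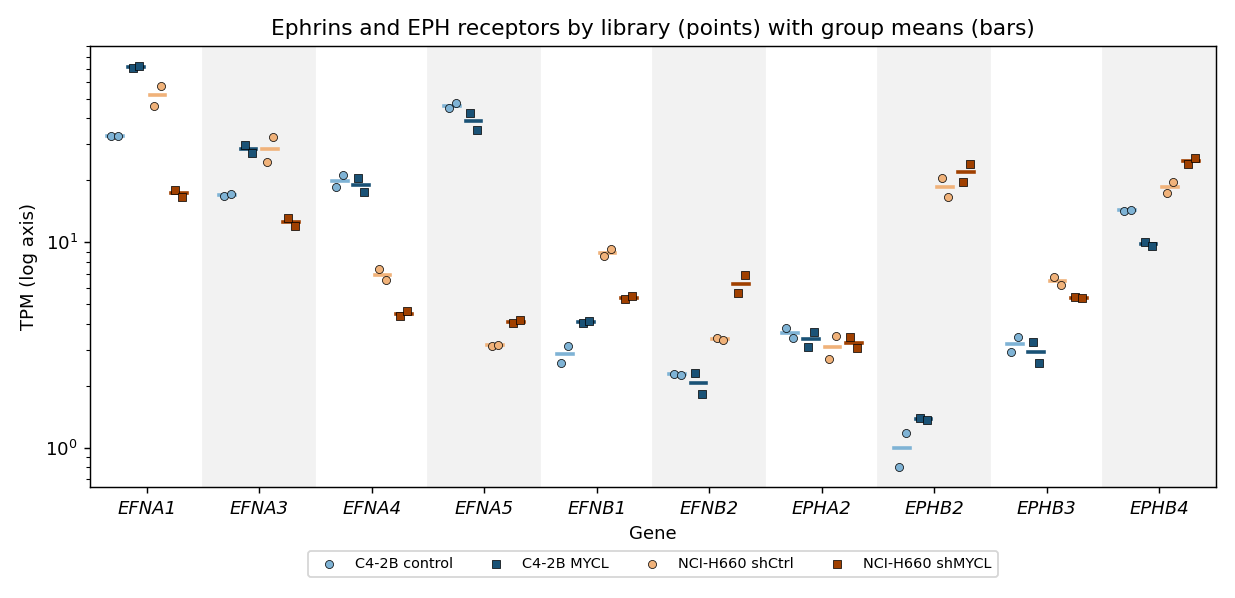
TPM of the 10 genes (log axis) in each of the 8 libraries (points) with the mean of each condition (bars). EFNA1 ran from 16.6 TPM in an shMYCL library to 72.0 TPM in a MYCL library, and EPHB2 from 0.806 TPM in a control C4-2B library to 24.0 TPM in an shMYCL library.

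To ask which of these genes moved when MYCL was raised, MYCL and control C4-2B were compared. EFNA1, EFNA3 and EFNB1 rose, by 2.41-fold, 1.84-fold and 1.59-fold, and no member fell past the threshold. To be called, a gene needed a log2 fold change of 0.5 or more in size, with edgeR's quasi-likelihood test giving an adjusted p under 0.05. By this rule 3 of 10 members were called higher and 0 lower. Of the 16866 genes tested 11.8% were called higher, 8.12% lower and 19.9% in either direction. The members were chosen with earlier results of these data known, so such shares, here and below, do not test the family. The median log2 fold change of the members was 0.08, against −0.0017 over all genes tested. Without the minimum fold change 4 of 10 members passed, where 35.0% of all genes did. For 1 gene in 2 libraries against 2, the smallest p of an exact permutation test is 0.333, and the edgeR test instead borrows its spread from all genes. In bulk RNA, fewer cells expressing a gene and less RNA per cell cannot be told apart.

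EFNA1, a ligand of EPHA receptors and a main partner of EPHA2, had 35.5 and 35.0 CPM (counts scaled to the library total and normalized between libraries by TMM) in control and 81.0 and 88.8 CPM in MYCL cells. Both MYCL libraries were above both control libraries, by more than the spread within either pair. The log2 fold change was 1.27 (SE 0.08, adjusted p = 2.72e-05 by edgeR's quasi-likelihood test).

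EFNA3, another ephrin-A ligand and the neighbour of EFNA1, had 21.9 and 22.2 CPM in control and 40.9 and 40.4 CPM in MYCL cells. The pairs were far apart and each was tight. On the log2 scale the change was 0.88 (SE 0.09, adjusted p = 1.53e-04 by the edgeR test). EFNA4, the third ligand of the cluster, had 14.4 and 16.2 CPM in control and 17.1 and 16.0 CPM in MYCL cells, and the pairs overlapped. The log2 fold change of EFNA4 was 0.12, with a 95% interval from −0.14 to 0.38 (adjusted p = 0.455 by the edgeR test). The interval lay below those of EFNA3 (0.69 to 1.08) and EFNA1 (1.08 to 1.45), although the differences between genes were not tested.

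In GENCODE 44, EFNA3 shares 43.9% and EFNA4 15.0% of its exon bases with the readthrough gene EFNA4-EFNA3, so that reads in those exons could be split between them. The readthrough gene was given 5 and 8 counts in the MYCL libraries and 0 in the other 6, against at least 178 counts for EFNA3 in every library. EFNA5, a ligand that binds EPHA receptors and EPHB2, had 172.6 and 176.3 CPM in control and 174.1 and 153.8 CPM in MYCL cells. These overlapped, and the log2 fold change of −0.09 did not pass (adjusted p = 0.420 by the edgeR test).

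EFNB1, a transmembrane ligand of EPHB receptors, had 6.58 and 7.94 CPM in control and 11.01 and 11.95 CPM in MYCL cells. The groups did not overlap, but the log2 fold change of 0.67 (SE 0.16, adjusted p = 0.0112 by the edgeR test) was the smallest of the 3 called. Without control replicate 1 it was 0.52 and did not pass, and over all alternatives its adjusted p ran from 0.00252 to 0.206. EFNB2, the main ligand of EPHB4 and a marker of arterial endothelium, had 9.22 and 9.03 CPM in control and 9.82 and 8.35 CPM in MYCL cells. Its log2 fold change was −0.0063, with an interval from −0.35 to 0.34.

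Among the receptors none passed both thresholds in C4-2B. EPHB4 had 47.0 and 48.6 CPM in control and 36.6 and 37.7 CPM in MYCL cells. The MYCL pair was below the control pair, and the log2 fold change of −0.36 (SE 0.08) had an adjusted p of 0.00825 by the edgeR test but lay under the minimum fold change. On log2(TPM + 1) it was −0.51, past the minimum, on a scale where the median of all genes was −0.14, and −0.36 after centring each library on its median. EPHB2, a receptor of ephrin-B ligands, had 3.26 and 3.91 CPM in control and 5.75 and 5.26 CPM in MYCL cells. The pairs did not overlap, and the log2 fold change of 0.62 (SE 0.23, 95% interval 0.10 to 1.14) had an adjusted p of 0.0638 by the edgeR test. In a fit of all 4 groups its log2 fold change was 0.63 and it was called, with its adjusted p between 0.0148 and 0.496 over the alternatives.

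EPHA2, the receptor of EFNA1 in epithelial cells, had 11.99 and 10.6 CPM in control and 10.3 and 13.1 CPM in MYCL cells. EPHB3, an ephrin-B receptor, had 9.84 and 11.6 CPM in control and 11.7 and 9.95 CPM in MYCL cells. Both overlapped between the groups, with log2 fold changes of 0.05 (95% interval −0.30 to 0.40) and 0.02 (−0.33 to 0.36). In all, the CPM of the groups did not overlap for 5 of 10 members, where this held for 69.2% of all genes tested.

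Summed TPM of 10 prostate adenocarcinoma markers was 2575 to 2581 in control and 1610 to 1761 in MYCL cells, with none of the 10 at 0. Of these markers 4 were called lower, where 8.12% of all genes tested were, and 1 had a positive log2 fold change. For 10 neuroendocrine markers the sum was 6.94 to 6.96 TPM in control and 7.10 to 7.35 TPM in MYCL cells. Only 2 of them were tested, with 0 called. Summed TPM of 8 immune markers was 9.20 to 11.6 in control and 25.2 to 27 in MYCL cells, most of it CD68, with PTPRC at 0 throughout. For 10 endothelial markers the sum was 1.36 to 1.62 and 1.86 to 2.57 TPM, and for 10 fibroblast markers 2.77 to 3.33 and 4.05 to 5.23 TPM. The part of these shifts in the ephrin values was not tested.

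The reverse comparison, shMYCL against shCtrl in NCI-H660, asked which members moved when MYCL was lowered. EFNA1, EFNA3 and EFNB1 fell, to levels 3.05-fold, 2.31-fold and 1.67-fold lower, and EFNB2 rose 1.84-fold. Of 10 members, 3 were called lower and 1 higher, where 8.99% of the 16980 genes tested were called lower, 7.18% higher and 16.2% in either direction. The median over the members was −0.11, against −0.0029 over all genes tested. Without the minimum fold change 5 of 10 members passed, where 24.8% of all genes did.

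EFNA1 had 35.3 and 46.8 CPM in shCtrl and 14.0 and 12.97 CPM in shMYCL cells. The shCtrl libraries differed from each other by more than the shMYCL libraries did, and both were above the shMYCL pair. The log2 fold change was −1.61 (SE 0.15, adjusted p = 3.36e-06 by edgeR's quasi-likelihood test). EFNA3 had the same order of libraries, with 22.8 and 32.0 CPM in shCtrl and 12.4 and 11.4 CPM in shMYCL cells. The change on the log2 scale was −1.20 (SE 0.17, adjusted p = 9.51e-05 by the edgeR test). Leaving out each library in turn, the change of EFNA1 stayed between −1.79 and −1.39 and that of EFNA3 between −1.42 and −0.94.

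EFNA4 had 4.31 and 3.90 CPM in shCtrl and 2.50 and 2.75 CPM in shMYCL cells, from between 38 and 73 counts a library. The groups did not overlap, and the log2 fold change of −0.64 had a wide interval, from −1.27 to −0.01, and an adjusted p of 0.128 by the edgeR test. That interval includes the −1.20 of EFNA3, so EFNA4 was not shown to change less than EFNA3 in this line. In a fit of all 4 groups EFNA4 was called, at −0.64, and its adjusted p over all alternatives ran from 0.0427 to 0.418. EFNA5 had 9.68 and 10.4 CPM in shCtrl and 12.8 and 13.2 CPM in shMYCL cells. These did not overlap either, and the log2 fold change of 0.37 did not pass (SE 0.16, adjusted p = 0.106 by the edgeR test).

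EFNB1 had 15.6 and 17.9 CPM in shCtrl and 9.81 and 10.2 CPM in shMYCL cells, without overlap. Its log2 fold change was −0.74 (SE 0.16, adjusted p = 0.00300 by the edgeR test). EFNB2 had 9.79 and 10.2 CPM in shCtrl and 16.5 and 20.3 CPM in shMYCL cells, so both B ligands moved, in opposite directions. Its log2 fold change was 0.88 (SE 0.16, adjusted p = 9.59e-04 by the edgeR test). The antisense gene ENSG00000284966 overlaps 36.4% of the exon bases of EFNB2, and the sources used here do not say whether counting used strand. It had between 0 and 4 counts a library, against at least 146 for EFNB2.

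None of the 4 receptors was called in NCI-H660. EPHB4 had 41.4 and 50.4 CPM in shCtrl and 59.2 and 61.6 CPM in shMYCL cells. The shMYCL pair was higher, and the log2 fold change of 0.40 (SE 0.12, adjusted p = 0.0247 by the edgeR test) was under the minimum fold change. Without shCtrl replicate 2 it was 0.55 and was called. EPHB4 shares 1.07% of its exon bases with SLC12A9 on the opposite strand, which had between 85 and 461 counts a library.

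EPHB2 had 55.2 and 48.5 CPM in shCtrl and 58.1 and 65.9 CPM in shMYCL cells, and its change of 0.26 on the log2 scale did not pass (adjusted p = 0.121 by the edgeR test). MIR4253 shares 0.272% of the exon bases of EPHB2 and had no counts. EPHB3 had 16.2 and 15.8 CPM in shCtrl and 13.3 and 13.1 CPM in shMYCL cells, a log2 fold change of −0.28 (adjusted p = 0.182 by the edgeR test). For both, the pairs were separate but the change was too small to pass. EPHA2 had 5.96 and 8.28 CPM in shCtrl and 7.83 and 6.96 CPM in shMYCL cells, which overlapped. Its log2 fold change was 0.05, with an interval from −0.41 to 0.51. The CPM of the groups did not overlap for 9 of 10 members, where this held for 63.1% of all genes tested.

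Of 10 neuroendocrine markers 9 were tested in NCI-H660, with 2 called lower and 0 higher. Of all genes tested 8.99% were called lower and 7.18% higher. Among the 9 markers, 4 had a positive and 5 a negative log2 fold change. INSM1, a neuroendocrine transcription factor, had between 35.4 and 37.1 TPM in shCtrl and between 22.3 and 24.2 TPM in shMYCL cells and was called lower. The secretory granule genes CHGB and SCG3 had log2 fold changes of 0.44 and 0.40, under the minimum, and CHGA one of −0.11. The listed endothelial markers summed to 18.1 to 20.7 TPM in shCtrl and 14.3 to 16.1 TPM in shMYCL cells. PECAM1, TIE1, TEK and EMCN were at or near 0, so the sum was not read as endothelial content. It came mainly from ESAM, ERG and CDH5. ERG, with 6.14 to 6.26 TPM in shCtrl and 3.04 to 3.17 TPM in shMYCL cells, and CDH5, with 2.54 to 3.12 and 0.787 to 2.30 TPM, were called lower. They were 2 of the 4 listed endothelial markers tested, beside the same 8.99% of all genes. The immune sum was 68.8 to 71.5 and 61.4 to 65.3 TPM, nearly all CD74. The fibroblast sum was 39.4 to 44.8 and 26.3 to 27.4 TPM, most of it COL1A2, with DCN at 0. The part of these shifts in the ephrin values was not tested.

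**Figure D2:**
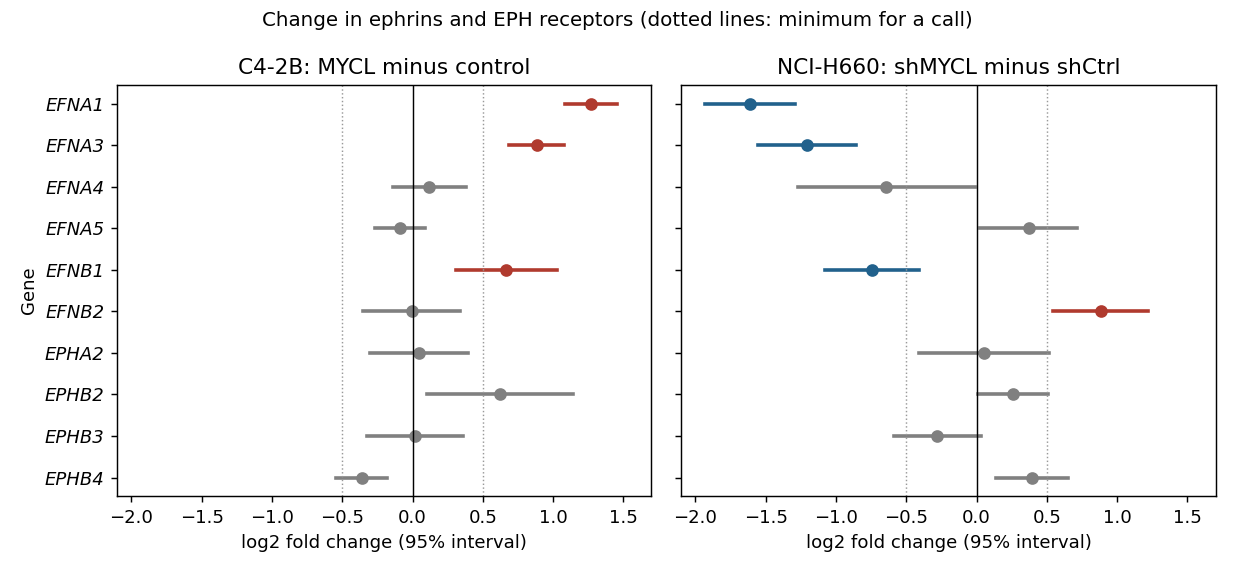
Log2 fold changes (points) with 95% intervals (lines) from edgeR for MYCL against control C4-2B (left) and shMYCL against shCtrl NCI-H660 (right). Red marks genes called higher, blue genes called lower, grey genes not called, and dotted lines the minimum of 0.5 for a call. EFNA1, EFNA3 and EFNB1 are red on the left and blue on the right, and EFNB2 is grey on the left and red on the right.

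Whether the effect of higher MYCL differed between the lines was tested as an interaction over all 4 groups. The test took MYCL minus control in C4-2B and shCtrl minus shMYCL in NCI-H660. The size of the manipulation differed too, with a log2 fold change of MYCL of 8.26 in C4-2B and −3.06 in NCI-H660. A different response of the lines and a different size of the manipulation cannot be told apart here. EFNB2 and EPHB2 differed, and the other 8 members did not pass. At an adjusted p under 0.05, 2 of 10 members passed, both with the higher value in C4-2B, where 20.2% of the 19605 genes tested passed in either direction, 10.6% with the higher and 9.63% with the lower value in C4-2B. For EFNB2 the difference in log2 fold change was 0.87 (95% interval 0.38 to 1.36, adjusted p = 0.0159 by edgeR's quasi-likelihood test). For EPHB2 it was 0.89 (95% interval 0.44 to 1.33, adjusted p = 0.00868 by the edgeR test). Neither held under every alternative: without MYCL replicate 1 or shMYCL replicate 2 the EFNB2 difference was 0.77 or 0.71 and did not pass, and without control C4-2B replicate 1 the EPHB2 difference was 0.74 and did not pass. On log2(TPM + 1) they were 0.62 and 0.49, and neither passed.

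For EFNA1 the difference was −0.35, with a 95% interval from −0.74 to 0.05, and for EFNA3 it was −0.32, from −0.77 to 0.12. Without shCtrl replicate 1, the shCtrl library with the lower values of both genes, these were −0.54 and −0.55 and passed. For EFNA4 the difference was −0.53 (−1.07 to 0.02) and for EFNB1 −0.08 (−0.57 to 0.41). EFNA5, EPHA2, EPHB3 and EPHB4 had differences between −0.26 and 0.28 that did not pass.

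Between the control conditions of the lines, shCtrl NCI-H660 and control C4-2B, each with its own control vector, 5 of 10 members differed. On normalized CPM EPHB2 and EFNB1 were higher in NCI-H660, and EFNA5, EFNA4 and EPHA2 were lower, where 69.8% of the 19605 genes tested differed, 36.5% higher and 33.3% lower. Without the minimum fold change 6 of 10 passed, where 77.8% of all genes did, and the pairs of libraries did not overlap for 7 of 10, where this held for 89.1%. EPHB2 was 13.04-fold higher, with 3.45 and 4.13 CPM in control C4-2B against 52.4 and 45.8 CPM in shCtrl cells. EFNA5 was 19.4-fold lower, with 182.6 and 186.4 CPM in control C4-2B against 9.18 and 9.80 CPM in shCtrl cells. EFNA4 was 4.15-fold lower and EFNB1 2.07-fold higher, with no overlap between the pairs.

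EPHA2 was 1.77-fold lower on normalized CPM, a log2 fold change of −0.82, but −0.18 and not called on log2(TPM + 1). On that scale the median of all genes was 0.52 higher in NCI-H660. EFNA1, EFNA3 and EPHB3, at 0.06, 0.15 and 0.42 on normalized CPM and not called, were 0.63, 0.71 and 0.84 on log2(TPM + 1) and called. After centring each library on its median they were −0.12, −0.04 and 0.09 and not called, and EPHA2 was −0.93 and called. EFNB2 and EPHB4, at −0.03 and −0.22 on normalized CPM, were 0.42 and 0.34 on log2(TPM + 1) and −0.33 and −0.40 after centring, so no direction is given for them.

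With the 12 other genes of the family included, RNA was summed over each class. Ephrin-A ligands summed to between 113.8 and 119.1 TPM in control C4-2B libraries and between 153.3 and 164.4 TPM in MYCL libraries. EFNA1 made up 28.3% of that sum in control and 45.0% in MYCL cells, and EFNA5 39.7% and 24.5%. In NCI-H660 the ephrin-A sum was between 82.1 and 100.6 TPM in shCtrl and between 41.3 and 41.8 TPM in shMYCL libraries, of which EFNA1 made up 56.8% and 41.6%. EFNA3 made up 31.1% and 30.2% of it, and EFNA5 3.48% and 9.86%.

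EFNA2, a low ligand of the A class, was called higher in both manipulations. It had 0.707 and 1.09 CPM in control and 2.28 and 2.75 CPM in MYCL cells (log2 fold change 1.49, adjusted p = 0.0159 by the edgeR test). It had 1.06 and 1.19 CPM in shCtrl and 3.16 and 5.30 CPM in shMYCL cells (1.90, adjusted p = 0.00212 by the edgeR test). It was therefore called higher both where MYCL was raised and where it was lowered, and the difference of the effects, 3.39, passed. These calls rest on between 18 and 83 counts a library. The alternatives were read gene by gene for the members only, so not for EFNA2. EFNB3, the third ephrin-B ligand, had 1.26 and 1.43 CPM in control and 4.23 and 4.92 CPM in MYCL cells, a log2 fold change of 1.77 (adjusted p = 0.00178 by the edgeR test). In NCI-H660 it was the largest part of the ephrin-B sum, 65.3% in shCtrl cells, and its log2 fold change of −0.41 was under the minimum fold change.

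Receptor RNA differed in kind between the lines. EPHA3 made up 91.2% of the EPHA sum in control C4-2B, with 132.2 and 138.5 TPM, and had 0 counts in both shCtrl libraries, at least 3640.3-fold lower against a floor of 3 counts a library. In shCtrl NCI-H660 EPHA7, with 40.4 and 34.2 TPM, and EPHA6, with 18.7 and 17.4 TPM, made up 55.1% and 26.7% of the EPHA sum. EPHA4, a receptor that binds ligands of both classes, had 0 counts in all C4-2B libraries and was at least 98.3-fold higher in shCtrl NCI-H660. It rose further in shMYCL cells, from 11.2 and 10.5 to 16.6 and 17.4 CPM (log2 fold change 0.65, adjusted p = 0.00560 by the edgeR test).

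EPHB4 made up 76.1% of the EPHB sum in control C4-2B. In shCtrl NCI-H660 EPHB1, EPHB4 and EPHB2 made up 38.0%, 26.4% and 26.4% of it. EPHB1 had 3 and 1 counts in control C4-2B and 1267 and 1298 counts in shCtrl NCI-H660. In shMYCL cells its log2 fold change was −0.44, under the minimum. EPHB6 had 0 counts in NCI-H660 and was at least 4.89-fold higher in control C4-2B. EPHA10 was higher in shCtrl NCI-H660 by a log2 fold change of 5.32. Of the 12 genes, 7 were tested in C4-2B, where EFNA2 and EFNB3 were called higher and 0 lower, and 10 in NCI-H660, where EFNA2 and EPHA4 were called higher and 0 lower. Over all genes tested, the called shares were 19.9% and 16.2%. Between the lines 8 of 12 were called higher in shCtrl NCI-H660 and 3 lower, where 36.5% and 33.3% of all genes tested were. The effect of higher MYCL on EFNB3 and EPHA7 also differed between the lines, by 1.36 and −0.93.

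**Figure D3:**
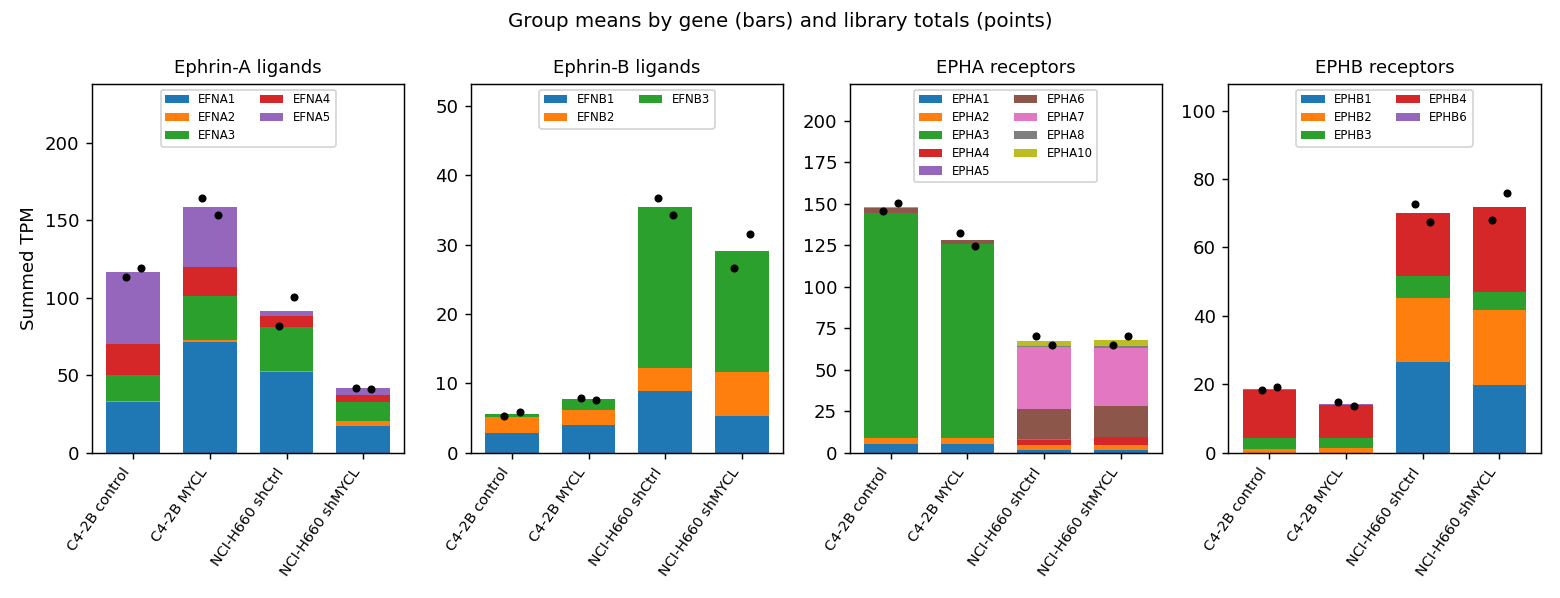
Summed TPM of ephrin-A ligands, ephrin-B ligands, EPHA and EPHB receptors, with the mean of each gene stacked in colour and the 2 library totals of each condition as points. EFNA1 is the blue base of the ephrin-A bars, EPHA3 fills most of the EPHA bars in C4-2B, and EPHA7 and EPHA6 most of them in NCI-H660.

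Lists of genes that act with ephrins and EPH receptors were read beside the members. Of 17 proteases and turnover genes, which shed or degrade ligands and receptors, 14 were tested in C4-2B, with 4 called higher and 0 lower. MMP14, a membrane metalloproteinase, had a log2 fold change of 1.25, RHBDL2, a rhomboid protease that cleaves ephrin-B3, 0.72, and CBLB, a ubiquitin ligase, 0.54. In NCI-H660 15 were tested, with 1 called higher and 2 lower. PTPRO, a phosphatase of EPH receptors, had 1.19, ADAM12, a metalloproteinase, −1.18, and ADAM10, the main protease that sheds ephrin-A ligands, −0.66. Over the list, the median change in C4-2B was 0.14, and the NCI-H660 median was 0.08.

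Of 22 kinases, adaptors and scaffolds, 21 were tested in C4-2B, with 2 called higher and 0 lower. FYN, a Src family kinase used by ephrin-A signalling, had a log2 fold change of 2.35, and RGS3, which binds the tail of ephrin-B, 0.84. In NCI-H660 all 22 were tested, with GRIP1, a PDZ scaffold of ephrin-B, at 2.24 and SHC1, an adaptor, at 0.51 called higher and 0 lower. The shares called in these lists can be set against 19.9% and 16.2% of all genes.

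EFNA3 and EFNA1 moved together, and EFNA4 did not pass, although its log2 fold change in NCI-H660 was −0.64, in the same direction as theirs. The genes within 50 kb of the 3 ligands were therefore read as well, a choice made after their values were seen. Of 13 non-member genes there, 9 were tested in C4-2B, with 2 called higher and 0 lower, where 19.9% of all genes tested were called. DCST2 had a log2 fold change of 1.23 and SLC50A1, which starts 7.468 kb after the start of EFNA1, 0.51. The other 7 lay between −0.13 and 0.32. In NCI-H660 7 were tested and 0 called by edgeR, where 16.2% of all genes tested were called. They lay between −0.75 and 0.30, and SLC50A1 had −0.26 (adjusted p = 0.103 by the edgeR test). ADAM15, a metalloproteinase between DCST1-AS1 and EFNA4, had 0.22 and 0.30. In NCI-H660 the changes of EFNA1 and EFNA3 were larger in size than those of the 7 tested neighbours. In C4-2B the same held for EFNA1, and for EFNA3 against all 9 but DCST2.

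**Figure D4:**
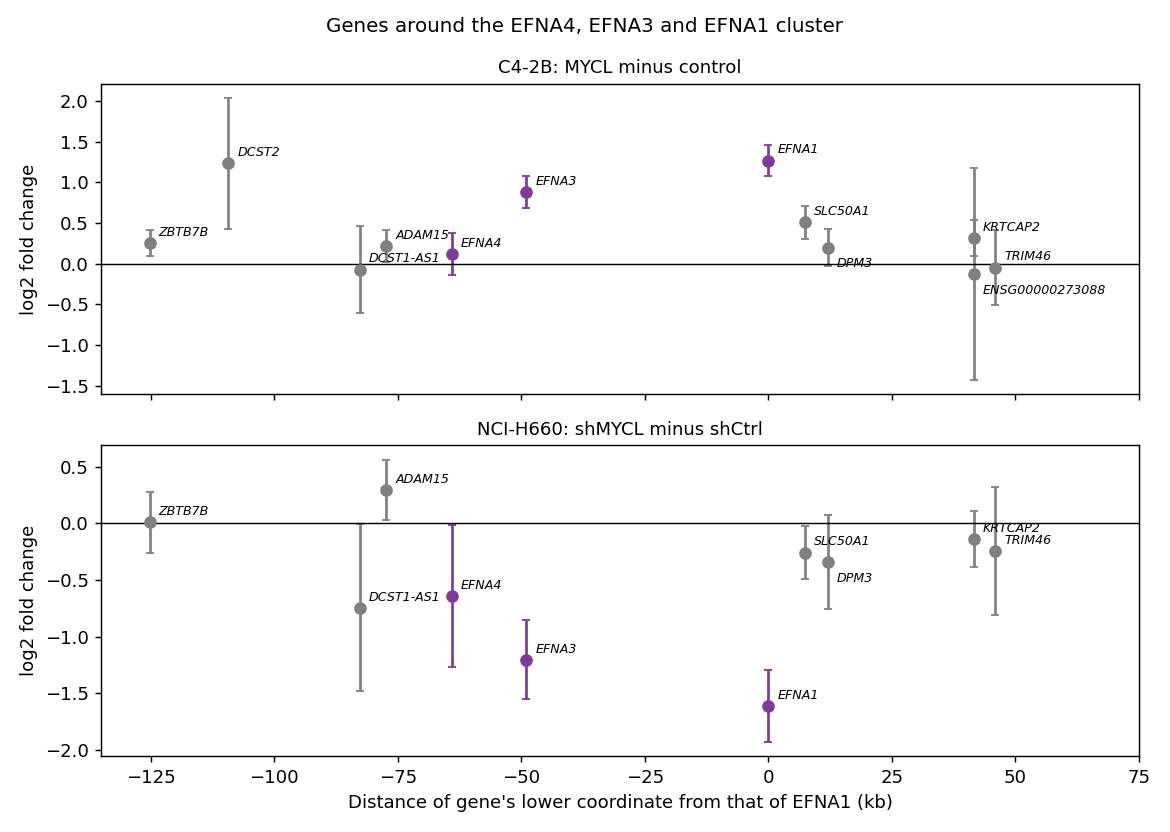
Log2 fold changes with 95% intervals (edgeR) of the tested genes around EFNA4, EFNA3 and EFNA1, by distance in kb from the lower coordinate of EFNA1, in C4-2B (top) and NCI-H660 (bottom). Purple marks the 3 ligands and grey their neighbours. EFNA1 lies at 1.27 and −1.61, and SLC50A1 beside it at 0.51 and −0.26.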

How the data were processed

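Poly(A)-selected RNA of 8 libraries was sequenced from both ends. For each gene the authors deposited estimated counts without normalization between libraries. The authors also deposited TPM, in which length and library total are divided out. The submitters' processing notes name hg38. The aligner, the counting tool and the use of strand are not given in the sources used here. Of the non-zero values 22.4% were not whole (tolerance 0.01), and counts were rounded. The TPM table holds 65535 of 78691 genes, all members among them. Neither the counts nor the TPM came with value columns other than those of the 8 libraries.

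The lines were fitted separately in edgeR 4.0.16 (R 4.3.3) with TMM normalization, filterByExpr and the quasi-likelihood test, adjusted by Benjamini-Hochberg over every gene tested. The interaction and the comparison of the lines came from a fit of all 4 groups. A call needed an adjusted p under 0.05 with a log2 change of 0.5 or more in size, and for the interaction the adjusted p alone. Intervals are 95%. edgeR's common biological coefficient of variation came to 0.0829 (C4-2B) and 0.0965 (NCI-H660). Replicates differed by more than sampling noise (chi-square per degree of freedom 4.83 to 11.7). A count of 0 allows up to 3 counts in a library, and such limits cover counting error only. The fits were tested on simulated data.

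Positions and overlaps are from GENCODE 44, which holds 61458 of the identifiers, and promoters from RefSeq. Alternatives were DESeq2 1.42.0, other size factors, filters, fits, a replicate block, limma 3.58.1 on log2(TPM + 1) or log2(TPM + 0.1), other minimum fold changes and leaving out each library. An alternative that centres log2(TPM + 1) on the median of every library was chosen after seeing the data. The members, gene lists, markers and motifs were chosen with earlier results of these data known. Some genes and 1 gene list that were analysed are not reported here. Genes named by rule are all members, other family members called (up to 6 a comparison), up to 3 called genes of each pathway list with the largest change, genes that overlap a member, MYCL, and the 3 genes most like the highest ligand and receptor. EPHA6, the marker genes and the neighbours of the EFNA4, EFNA3 and EFNA1 cluster lie outside that rule and were chosen after their values were seen.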

Additional observations from a re-analysis of the deposited data

Results flagged for a closer look

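By the interaction test of edgeR the effect of higher MYCL differed between the lines for 2 of the 10 members. Of all 19605 genes tested 20.2% passed, so the count is near that share. For EFNB2 the difference in log2 fold change, C4-2B minus NCI-H660, was 0.87 (adjusted p = 0.0159). Its change in C4-2B was −0.0063, and in NCI-H660 EFNB2 was higher by 0.88 in shMYCL than in shCtrl cells. For EPHB2 the difference was 0.89 (adjusted p = 0.00868), from a change of 0.62 in C4-2B and one of 0.26 in shMYCL against shCtrl cells, neither of which was called on its own. Over all alternatives the EFNB2 difference ran from 0.62 to 1.01 with adjusted p from 0.00574 to 0.142, and the EPHB2 difference from 0.49 to 1.02 with adjusted p from 0.00130 to 0.287.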

How the results depend on the processing

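EFNA1 and EFNA3 kept their direction and call in all 15 alternatives in C4-2B, and EFNA1, EFNA3, EFNB1 and EFNB2 in 14 of 15 in NCI-H660. EFNB1 in C4-2B kept its call in 11 of 15. These 15 leave the minimum fold change at 0.5. With a minimum of 1, EFNA3 and EFNB1 in C4-2B and EFNB1 and EFNB2 in NCI-H660 were not called. The limits are 2 libraries a group, few counts for EFNA4 in NCI-H660 and EPHB2 in C4-2B, and a difference in scale between count-based normalization and TPM.

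Genes called in C4-2B were 3355, with 1940 by limma on unfiltered log2(TPM + 1), 5895 with no minimum fold change and 1411 with a minimum of 1. EPHB4 made 1 member lower by limma on log2(TPM + 1), filtered or not, on log2(TPM + 0.1), and with no minimum, and 1 member stayed higher with a minimum of 1. In NCI-H660 2745 genes were called, with 1737 by DESeq2, 1702 and 1600 by limma on log2(TPM + 1) and log2(TPM + 0.1), 1 without a filter, 1692 after centring, 4204 with no minimum and 1022 with a minimum of 1. Members higher there numbered 0 in unfiltered TPM, 2 with no minimum and 0 with a minimum of 1, and members lower 0 in unfiltered TPM. In the interaction 3962 genes passed, with 2626 on log2(TPM + 0.1) and 2086 in unfiltered TPM. Members with a higher value there were 0 in the 3 TPM settings and 1 after centring, and EFNA4 made 1 lower in both filtered settings and after centring. Between the lines 13687 genes were called, with 8512 at 10 or more counts in every library, and members higher were 5, 6 and 5 in the TPM settings. The cause of these shifts was not tested, apart from the settings that test fewer genes or move the minimum.

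Values that changed sign were not called as a direction in the report. In C4-2B EPHB3 was −0.0057 with no filter, and in the TPM settings EFNA4 was −0.067, −0.070 and −0.067, EPHA2 −0.076, −0.096 and −0.076, and EPHB3 −0.10, −0.13 and −0.10, while EFNB2 was 0.045 after centring. In the interaction EPHA2 was −0.019, −0.021 and −0.019 and EPHB4 −0.10, −0.12 and −0.10 in the TPM settings, and EPHB4 −0.0025 after centring. Between the lines EFNB2 was 0.010 with RLE, 0.014 with DESeq2 and 0.42, 0.55 and 0.42 in TPM, EPHB4 0.34, 0.36 and 0.34 in TPM, and EFNA1 −0.12 and EFNA3 −0.044 after centring. Of these, EFNB2 was called on log2(TPM + 0.1).

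Leaving out 1 library in turn gave 2 to 3 members higher in C4-2B and 1 to 2 in NCI-H660. In the interaction it gave 2539 to 3879 genes, 1 to 2 members higher and 0 to 2 lower, and between the lines 2 to 3 members higher. In C4-2B EFNB2 ran from −0.12 to 0.10, EPHB3 from −0.11 to 0.13 and EPHA2 from −0.14 to 0.22, and in NCI-H660 EPHA2 from −0.16 to 0.31. In the interaction EPHB4 ran from −0.11 to 0.17, EFNB1 from −0.22 to 0.066 and EPHA2 from −0.12 to 0.34. Between the lines EFNB2 ran from −0.058 to 0.00083, EFNA1 from −0.14 to 0.25 and EFNA3 from −0.095 to 0.38.

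Libraries with the same number did not deviate together (correlation 0.0328 in C4-2B and 0.0457 in NCI-H660), so the numbers were not taken to pair them. With a replicate block 3536, 2949, 3850 and 13727 genes were called in the 4 comparisons, and the counts of members called were as without it.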

Other observations

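The 3 genes whose pattern over the 8 libraries was most like that of EFNA1, the ligand with the highest mean level (43.3 TPM), were EFNA3 (Pearson r of log2(CPM + 1) 0.994), HBP1, a transcriptional repressor (0.993), and HILPDA, a lipid droplet protein induced in hypoxia (0.993), among 10582 genes. For EPHB4, the receptor with the highest mean level among the members (16.8 TPM), they were ARHGDIA (0.978), RHOBTB2 (0.978) and LRP3, a receptor of the LDL family (0.975). The 8 libraries share 2 lines and 4 conditions and are not independent points, so no p is given.

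In the interaction, 4 of 22 kinases, adaptors and scaffolds had a higher effect of higher MYCL in C4-2B than in NCI-H660 and 2 a lower one, with FYN at 2.60, SHC1 at 0.95 and RGS3 at 0.80. Of 16 proteases and turnover genes, 3 were higher and 1 lower, with CBLB at 0.85, SH3KBP1 at 0.63 and ADAM17 at 0.53. The share of all genes tested that passed was 20.2%.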
